A study of Rattus norvegicus with 9 samples.

Results

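Blood-brain barrier transcripts were described in rat brain tissue through 4 genes chosen by Ensembl identifier, out of 32623 genes listed in the count table. They are the tight junction genes Cldn5 (ENSRNOG00000045811), Ocln (ENSRNOG00000018297) and Tjp1 (ENSRNOG00000011077), and the glucose transporter gene Slc2a1 (ENSRNOG00000007284). The count table gives identifiers without symbols, so the symbols are those the choice of identifiers came with. Rats of the Nano-patrol+NIR, rt-PA and saline groups were injected 4.5 h after a modelling step that is not described further. Brain tissue was taken 3 days after the injection. rt-PA, recombinant tissue plasminogen activator, is a clot-dissolving enzyme. The labels do not explain Nano-patrol+NIR, and the count columns of the rt-PA libraries are named uk, a difference that was not resolved. Each group had 3 libraries, called here by group and replicate number. All groups underwent the modelling step, and no group without it was analysed here. The sources used here do not give strain, sex, age, brain region or hemisphere. Nor do they say whether each library is a separate animal, and the spread behind the p-values may therefore be technical.

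The barrier between blood and brain is formed by endothelial cells that are sealed to each other by tight junctions. Claudin-5 is the main sealing protein of these junctions in brain endothelium, and occludin is a membrane protein that sits beside it and helps to regulate them. ZO-1, the product of Tjp1, is a scaffold inside the cell that ties the junction proteins to actin, and it is also made by many other cells of the brain. GLUT1, the product of Slc2a1, carries glucose across the endothelium and is also made by astrocytes. Breakdown of this barrier after stroke lets plasma and blood cells into the tissue, and bleeding is the main hazard of clot-dissolving treatment. RNA levels do not show protein loss or cleavage at the junction. In bulk tissue, fewer endothelial cells and less RNA per cell cannot be told apart.

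One library of each group stood apart from the other 2 across all genes, which bears on every result. Library totals were 13059048 to 14992109 counts, and 15402 genes were abundant enough to test. Levels are CPM, read counts brought to 1 library size with TMM factors. Over the log2 CPM of these genes, Nano-patrol+NIR 1 and 2 correlated at r = 0.985, rt-PA 1 and 2 at 0.984, and saline 2 and 3 at 0.990. Nano-patrol+NIR 3 correlated with its group at 0.940 and 0.944, rt-PA 3 with its group at 0.896 and 0.913, and saline 1 with its group at 0.926 and 0.931. Genes, over which these coefficients run, are not independent of each other. Since identifiers could not be paired with symbols, the markers of endothelial and other brain cells could not be checked in these libraries.

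The Cldn5 identifier, ENSRNOG00000045811, was listed with 0 counts in each of the 9 libraries. A count of 0 allows up to 3 counts, a one-sided 95% limit, which is at most 0.232 CPM in a single library (rt-PA 1) and 0.0244 CPM over all 9 together, with TMM scaling. These limits cover counting error only. The row was 1 of 9763, or 29.9% of the table, that held no count in any library. Whether this row of the table received the reads of claudin-5 was not tested. The data therefore give no level of claudin-5 in any group, and the barrier was represented by the other 3 genes, all of which passed the filter on low counts.

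Ocln was low in 2 of the 3 rt-PA libraries. It had 12.9, 10.2 and 16.4 CPM in Nano-patrol+NIR 1, 2 and 3. It had 5.25, 3.58 and 11.8 CPM in rt-PA 1, 2 and 3, and 11.1, 12.9 and 14.4 CPM in saline 1, 2 and 3. rt-PA 1 and rt-PA 2 lay below every other library, whereas rt-PA 3 lay inside the ranges of both other groups. The raw counts behind these values were 68, 47 and 170 in rt-PA 1, 2 and 3, with exact 95% Poisson intervals of 52.8 to 86.2, 34.5 to 62.5 and 145 to 198. The difference among the rt-PA libraries was thus larger than counting error, which is all that these intervals cover. Group means were 13.2 ± 3.14 in Nano-patrol+NIR, 6.89 ± 4.36 in rt-PA and 12.8 ± 1.65 in saline, in CPM (SD, n = 3 each).

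Slc2a1 was high in those same 2 rt-PA libraries. It had 319.7, 253.2 and 254.6 CPM in Nano-patrol+NIR 1, 2 and 3. It had 436.9, 522.5 and 263.5 CPM in rt-PA 1, 2 and 3, and 176.0, 255.7 and 270.1 CPM in saline 1, 2 and 3. rt-PA 1 and rt-PA 2 lay above every other library, and rt-PA 3 again lay inside the ranges of both other groups. Group means were 275.8 ± 38.0 in Nano-patrol+NIR, 407.6 ± 132 in rt-PA and 233.9 ± 50.7 in saline, in CPM (SD, n = 3 each). In saline, the lowest value came from saline 1, the library that stood apart in its group.

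Tjp1 varied little. It had 159.3, 164.7 and 178.5 CPM in Nano-patrol+NIR 1, 2 and 3. It had 170.4, 144.7 and 138.9 CPM in rt-PA 1, 2 and 3, and 156.6, 153.1 and 167.2 CPM in saline 1, 2 and 3. The groups overlapped, with rt-PA 1 above all saline libraries and rt-PA 2 and rt-PA 3 below the libraries of both other groups. Group means were 167.5 ± 9.89 in Nano-patrol+NIR, 151.3 ± 16.7 in rt-PA and 159.0 ± 7.32 in saline, in CPM (SD, n = 3 each).

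**Figure D1:**
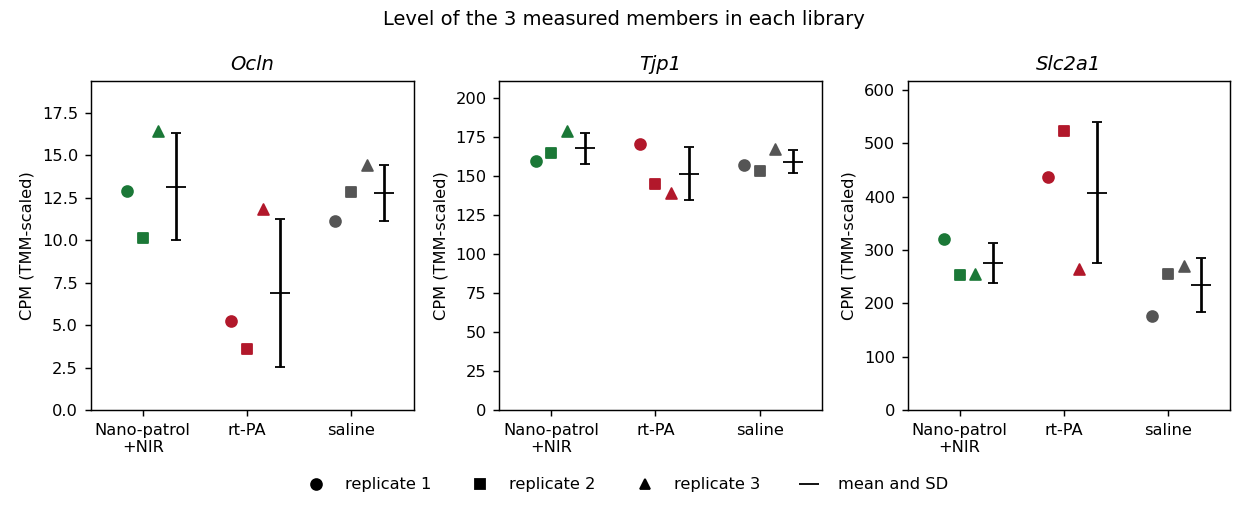
Level of Ocln, Tjp1 and Slc2a1 in CPM with TMM scaling, 1 point per library and 1 panel per gene, with the mean and SD of each group (n = 3) as a black bar. rt-PA 1 and 2 hold the lowest Ocln values (5.25 and 3.58 CPM) and the highest Slc2a1 values (436.9 and 522.5 CPM), while rt-PA 3 lies among the other groups.

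The promoters of the 2 genes whose levels moved apart in rt-PA 1 and rt-PA 2 are shown as background. They are RefSeq sequences from the GRCr8 build, matched by symbol, from 250 bases before the annotated start to 50 bases from it on, written 5′ to 3′ on the strand of the gene. The sources used here do not name the build behind the counts, and nothing measured here bears on binding at these sites. Slc2a1 lies on the plus strand at chr5:138002272-138002571, and capitals mark ACGTG, the core of the element that hypoxia-inducible factors bind. Ocln lies on the minus strand at chr2:33441149-33441448, and capitals mark CAGGTG, an E-box of the kind bound by Snail, which represses occludin in mouse epithelial cells.
Slc2a1: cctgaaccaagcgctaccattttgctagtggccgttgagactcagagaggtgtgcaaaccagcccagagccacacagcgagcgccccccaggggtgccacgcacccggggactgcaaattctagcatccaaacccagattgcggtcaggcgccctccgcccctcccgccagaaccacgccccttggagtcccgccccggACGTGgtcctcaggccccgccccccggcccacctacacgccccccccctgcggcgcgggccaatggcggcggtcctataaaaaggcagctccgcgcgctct
Ocln: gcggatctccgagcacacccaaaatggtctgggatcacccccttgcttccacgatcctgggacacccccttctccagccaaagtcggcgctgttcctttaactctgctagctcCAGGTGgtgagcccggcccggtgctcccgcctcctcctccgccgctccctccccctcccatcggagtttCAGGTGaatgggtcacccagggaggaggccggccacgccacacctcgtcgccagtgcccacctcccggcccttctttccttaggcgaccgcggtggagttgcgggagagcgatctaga

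Both strands of each window were searched, with motifs chosen after the sequences were seen. ACGTG and TATAAA were searched in both windows, GGGCGG in the Slc2a1 window alone and CAGGTG in the Ocln window alone. The windows were thus not compared motif by motif, and whether any motif relates to the levels of these genes was not tested. The Slc2a1 window held ACGTG 1 time, from 51 to 47 bases before the annotated start, and 19.3% of 33469 rat promoter windows in the table hold it on either strand. It also held 3 copies of GGGCGG, a GC box of the Sp1 type, which 33.1% of windows hold at least 1 time. The Ocln window held CAGGTG 2 times, ending 132 and 63 bases before the start, and it held ACGTG 0 times. At least 1 copy of CAGGTG is held by 18.8% of windows, and shares with several copies were not counted. GC content was 68.3% in the Slc2a1 window and 65.3% in the Ocln window, against a median of 51.7% over all windows. TATAAA stood 1 time in the Slc2a1 window, on bases 25 to 30 counted from the annotated start. The Ocln window held it 0 times, and 14.2% of windows hold it. All distances rest on the annotated starts, which were not checked. The matches do not overlap each other, and each describes letters only.

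The first comparison asked whether barrier transcripts differed between rt-PA and saline. Ocln was 0.539 times as high in rt-PA as in saline, a log2 fold change of -0.89 (SE 0.41, 95% interval -1.83 to 0.05). In the edgeR quasi-likelihood fit over all genes its adjusted p was 0.314. Slc2a1 was 1.74 times as high in rt-PA as in saline, a log2 fold change of 0.80 (SE 0.28, 95% interval 0.16 to 1.44, edgeR unadjusted p = 0.0193, adjusted p = 0.207). Tjp1 had a log2 fold change of -0.07 (SE 0.14, 95% interval -0.39 to 0.25, edgeR adjusted p = 0.833). An adjusted p under 0.05 was the threshold, and 0 of the 3 tested genes passed it, against 0.00649% of all tested genes (1 of 15402). At an unadjusted p under 0.05 stood 1 of the 3, Slc2a1, against 17.0% of all tested genes. Its edgeR unadjusted p rose to 0.0538 without saline 1 and to 0.0803 without rt-PA 2. It stayed under 0.05 when any other single library was left out. In none of the 3 genes were the ranges of rt-PA and saline apart (0 of 3), which was so for 19.5% of all tested genes. By size alone, 7.49% of tested genes had a log2 fold change as low as that of Ocln, and 9.16% had one as high as that of Slc2a1. The median of all tested genes was -0.01.

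rt-PA 3 decided on which side of the threshold Ocln and Slc2a1 lay. Without it the log2 fold change of rt-PA against saline was -1.51 for Ocln (SE 0.29, 95% interval -2.19 to -0.83, edgeR adjusted p = 0.0168), and for Slc2a1 it was 1.07 (SE 0.21, 95% interval 0.57 to 1.56, edgeR adjusted p = 0.0188). Tjp1 stood at 0.01 without rt-PA 3 (95% interval -0.31 to 0.34, edgeR adjusted p = 0.960), its sign turned. In that fit 2 of the 3 genes passed the threshold, against 13.5% of all tested genes. Leaving out the library farthest from its group leaves 2 libraries that are alike, which makes the spread and the p-values too small. Without rt-PA 2 the log2 fold change was -0.58 for Ocln (edgeR adjusted p = 0.625), and for Slc2a1 it was 0.58 (edgeR adjusted p = 0.523).

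Across all tested genes, rt-PA 3 lay inside the range of the saline libraries for 44.0% of them, as it did for Ocln and Slc2a1 but not for Tjp1. Ocln was 2.68 times as high in rt-PA 3 as the mean of rt-PA 1 and 2 (11.8 and 4.41 CPM). Slc2a1 was 0.549 times as high in rt-PA 3 as that mean (263.5 and 479.7 CPM). A spread among the rt-PA libraries as wide as that of Ocln was seen in 11.95% of tested genes, and one as wide as that of Slc2a1 in 28.8%, measured as the log2 range with 0.5 CPM added. What sets rt-PA 3 apart from rt-PA 1 and 2 was not tested.

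Nano-patrol+NIR was next set against the same saline libraries, and no difference in these genes was detected. Mean Ocln was 13.2 CPM with Nano-patrol+NIR and 12.8 CPM with saline, a log2 fold change of 0.04 (SE 0.41, 95% interval -0.88 to 0.97, edgeR adjusted p = 1.000). Tjp1 had a log2 fold change of 0.08 (SE 0.14, 95% interval -0.25 to 0.40), and Slc2a1 one of 0.24 (SE 0.28, 95% interval -0.40 to 0.87), both with an edgeR adjusted p of 1.000. The intervals leave room for a change of Ocln in Nano-patrol+NIR to 0.542 or 1.95 times the saline level. For Tjp1 they leave room for 0.843 or 1.32 times, and for Slc2a1 for 0.760 or 1.83 times. Of the 3 genes 0 passed the threshold, against 0.00649% of all tested genes, and 0 of 3 had an unadjusted p under 0.05, against 5.89%. The ranges of both groups overlapped for all 3 genes, and were apart for 14.5% of tested genes. The sign of the Ocln difference turned without Nano-patrol+NIR 3, to -0.15, and without saline 1, to -0.04, with edgeR adjusted p of 1.000 and 0.993. In the fit without rt-PA 3, 0 of the 3 genes passed, against 0.223% of all tested genes.

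The direct comparison asked how the barrier transcripts compared under Nano-patrol+NIR and under rt-PA, in a series whose title concerns thrombolysis with a lower risk of bleeding. Ocln was 1.91 times as high in Nano-patrol+NIR as in rt-PA, a log2 fold change of 0.93 (SE 0.41, 95% interval -0.01 to 1.87, edgeR unadjusted p = 0.0513, adjusted p = 0.365). Slc2a1 was 0.677 times as high in Nano-patrol+NIR as in rt-PA, a log2 fold change of -0.56 (SE 0.28, 95% interval -1.20 to 0.07, edgeR adjusted p = 0.412). Tjp1 had a log2 fold change of 0.15 (SE 0.14, 95% interval -0.18 to 0.47, edgeR adjusted p = 0.688). Of the 3 genes 0 passed the threshold, as did 0% of all tested genes (0 of 15402), and 0 of 3 had an unadjusted p under 0.05, against 13.8%. The ranges of both groups overlapped for all 3 genes, and were apart for 17.4% of tested genes. A log2 fold change as high as that of Ocln was found in 6.19% of tested genes, and one as low as that of Slc2a1 in 12.4%.

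This comparison also turned on rt-PA 3. Without it, the log2 fold change of Nano-patrol+NIR against rt-PA was 1.54 for Ocln (95% interval 0.86 to 2.22, edgeR adjusted p = 0.0152), and for Slc2a1 it was -0.83 (95% interval -1.33 to -0.34, edgeR adjusted p = 0.0422). In that fit 2 of the 3 genes passed, against 13.1% of all tested genes. Without rt-PA 2 the log2 fold change was 0.62 for Ocln (edgeR adjusted p = 0.798), and for Slc2a1 it was -0.35 (edgeR adjusted p = 0.864). Both contrasts with rt-PA use the same 3 rt-PA libraries, so their values are not independent of each other.

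**Figure D2:**
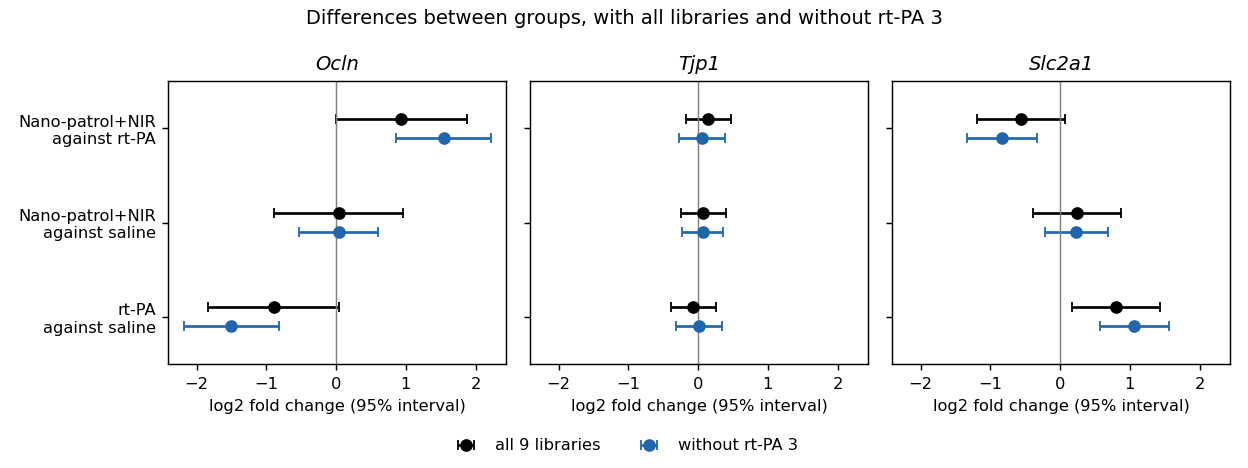
Log2 fold change and 95% interval (x axis) of Ocln, Tjp1 and Slc2a1 in each comparison (y axis), from the edgeR fit with all 9 libraries (black) and without rt-PA 3 (blue). Without rt-PA 3 the rt-PA against saline value is -1.51 for Ocln and 1.07 for Slc2a1, and the Tjp1 intervals include 0 throughout.

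The 3 groups were also tested together. The edgeR F test for any difference gave an adjusted p of 0.430 for Ocln (unadjusted p = 0.0986), 0.838 for Tjp1 and 0.328 for Slc2a1 (unadjusted p = 0.0455). Of the 3 genes 0 passed, against 0.00649% of all tested genes, and 1 of 3 had an unadjusted p under 0.05, against 14.7%. An exact permutation test used the between-group sum of squares of log2 CPM over all 1680 assignments of the 9 libraries to 3 groups of 3. Counting sums at least as large, the permutation test gave p = 0.104 for Ocln, p = 0.300 for Tjp1 and p = 0.0857 for Slc2a1. The smallest p this permutation test can give is 0.00357. Ordered by mean, Ocln was highest in Nano-patrol+NIR, then saline, then rt-PA, and Tjp1 had the same order. Slc2a1 was highest in rt-PA, then Nano-patrol+NIR, then saline. The ranges of neighbours in these orders overlapped in every case, so none was apart by more than the spread between libraries. Without rt-PA 3 the edgeR F test gave an adjusted p of 0.0260 for Ocln and 0.0321 for Slc2a1, 2 of 3 genes against 12.1% of all tested genes.

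Leaving out all 3 libraries that stood apart, or giving each library a weight, also put Ocln and Slc2a1 past the threshold. Without rt-PA 3, saline 1 and Nano-patrol+NIR 3 together, 2 of 3 genes were called in edgeR for rt-PA against saline, for Nano-patrol+NIR against rt-PA and for any group, against backgrounds of 43.8%, 40.5% and 45.3%. For Nano-patrol+NIR against saline it was 0 of 3, with a background of 3.27%. limma-voom with a weight per library likewise called 2 of 3 in those 3 tests, against 45.2%, 39.1% and 49.5%, and 0 of 3 for Nano-patrol+NIR against saline, against 5.9%. With backgrounds this high, these calls single out neither gene from the rest of the table. With all 9 libraries, DESeq2 called 0 of the 3 genes in each test, against 7.11% of the genes it gave an adjusted p for rt-PA over saline, 0.867% for Nano-patrol+NIR over saline, 4.12% for Nano-patrol+NIR over rt-PA and 7.16% for any group. limma-voom without weights also called 0 of the 3, against 0.0%, 0.0%, 0.00649% and 0.0% in the same order.

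**Figure D3:**
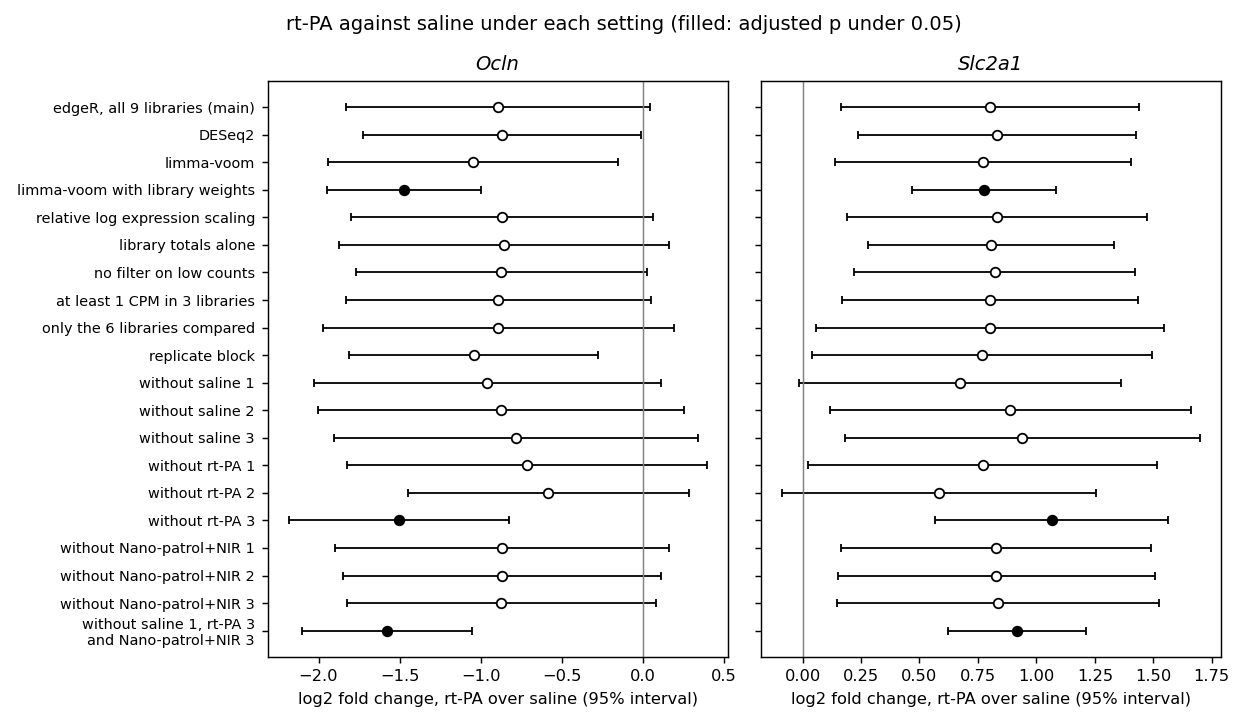
Log2 fold change of rt-PA over saline with its 95% interval (x axis) for Ocln and Slc2a1 under each setting (y axis), where filled points have an adjusted p under 0.05. Ocln is below 0 and Slc2a1 above 0 in all 20 settings, and the 3 filled settings are those that drop rt-PA 3 or weight the libraries.

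Within single libraries, Slc2a1 and Ocln were set against each other, which cancels any scaling that both share. The log2 ratio of Slc2a1 to Ocln was 4.61, 4.62 and 3.94 in Nano-patrol+NIR 1, 2 and 3. It was 6.34, 7.13 and 4.46 in rt-PA 1, 2 and 3, and 3.97, 4.30 and 4.21 in saline 1, 2 and 3. These ratios are of read counts and not per gene length, so their size says nothing of which transcript was more abundant. rt-PA 1 and rt-PA 2 had the highest ratios. rt-PA 3 lay within the Nano-patrol+NIR range but above all saline libraries, so the rt-PA and saline ranges did not overlap in this ratio. How often other gene pairs show this was not computed. Against the mean log2 CPM of the other 2 genes, Ocln averaged -4.04 ± 0.32 in Nano-patrol+NIR, -5.29 ± 1.15 in rt-PA and -3.89 ± 0.03 in saline (SD, n = 3 each). Slc2a1 averaged 2.55 ± 0.30 in Nano-patrol+NIR, 3.68 ± 0.91 in rt-PA and 2.35 ± 0.24 in saline on the same measure. Tjp1 averaged 1.48 ± 0.19 in Nano-patrol+NIR, 1.61 ± 0.27 in rt-PA and 1.55 ± 0.23 in saline. For Ocln, rt-PA 3 stood at -4.00, below all saline libraries (-3.93 to -3.87). For Slc2a1 it stood at 2.69, above all saline libraries (2.07 to 2.52). In both genes rt-PA 3 lay within the Nano-patrol+NIR range. The reference for Ocln includes Slc2a1, and that for Slc2a1 includes Ocln. The values of these 2 genes on this measure thus partly repeat each other's opposite moves. The ratio of Slc2a1 to Ocln was not among the planned measures.

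**Figure D4:**
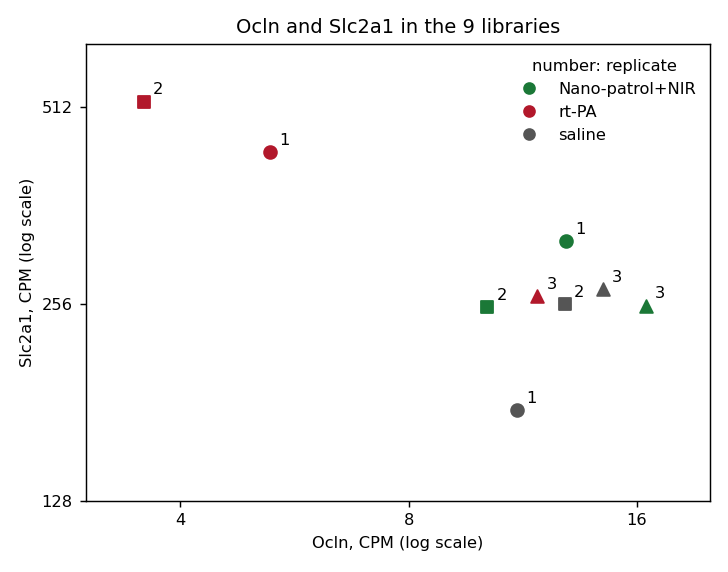
Ocln (x axis) against Slc2a1 (y axis) in CPM on log scales, 1 point per library, coloured by group and numbered by replicate. rt-PA 1 and 2 sit apart at the upper left (5.25 and 3.58 CPM of Ocln), and the other 7 libraries, rt-PA 3 included, lie together at 10.2 to 16.4 CPM of Ocln.

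Among 11858 other genes averaging at least 5 CPM, those with a pattern most like each of the 3 genes were found by Pearson's r of log2 CPM over the 9 libraries. Neither the files nor the reference pair their identifiers with symbols, so they stay unnamed. ENSRNOG00000009826 (r = 0.98) and ENSRNOG00000001344 (r = 0.98) were most like Ocln. ENSRNOG00000009826 had 6.30 to 10.8 CPM with Nano-patrol+NIR, 0.838 to 8.07 CPM with rt-PA and 5.29 to 7.68 CPM with saline. ENSRNOG00000004972 (r = 0.98) and ENSRNOG00000009348 (r = 0.98) were most like Slc2a1. ENSRNOG00000004972 had 12.7 to 17.8 CPM with Nano-patrol+NIR, 13.8 to 38.2 CPM with rt-PA and 6.04 to 13.9 CPM with saline. ENSRNOG00000015334 (r = 0.95) and ENSRNOG00000007272 (r = 0.95) were most like Tjp1. Without rt-PA 1 and rt-PA 2, r over 7 libraries was 0.77 and 0.79 for the pair like Ocln, 0.97 and 0.96 for the pair like Slc2a1, and 0.98 and 0.95 for the pair like Tjp1. These genes were chosen for their high r, which is therefore a description.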

How the data were processed

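RNA was extracted from brain tissue, and libraries were made from poly(A)-selected, fragmented RNA with PCR enrichment, per the labels' protocols. Tools listed without a role in the submitters' processing notes are StringTie 1.3.1, HISAT2, Bowtie2 2.2.8 and fastp 0.18.0. How reads were counted, the strand setting, the build and the annotation are not given in those sources. Whole-number counts were deposited by the authors per gene and library, without normalization. How reads of overlapping or near-identical genes were handled is not known. Sample titles gave the groups and replicate numbers, and columns were matched through the sample descriptions.

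The counts were tested with edgeR 4.0.16 in R 4.3.3: filterByExpr by group, TMM scaling, 1 mean per group over all 9 libraries, and robust quasi-likelihood F tests with Benjamini-Hochberg adjustment over the 15402 tested genes. Standard errors are the log2 fold change over the square root of F, and log2 CPM used a prior count of 2. With 3 against 3 libraries a two-sided permutation test cannot go below 0.1, so only the test over 3 groups was run. Alternatives were DESeq2 1.42.0, limma-voom (limma 3.58.1) with and without library weights, other scalings and filters, the replicate number as a block and fewer libraries. The 4 genes and the settings were chosen with earlier results of these data known. By the rule for named genes, all 4 were to be named in each comparison, but Cldn5, without counts, has no fitted value. The 2 genes most like each measured one are named apart from the comparisons. The 17 lists of related and marker genes, written as symbols, were not used, since 0 of 47357 genes in the reference table carry an Ensembl identifier. Promoter sequences are RefSeq's (GRCr8).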

Additional observations from a re-analysis of the deposited data

How the results depend on the processing

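Of 225 values of Ocln, Tjp1 and Slc2a1 under 19 alternatives, 199 kept their side of the threshold and, where they have one, their direction. Values for any group are adjusted p without a direction, and only their side was compared. Of the rest, 18 newly passed the threshold, 8 changed sign and 0 lost a call, as none was called at first. With DESeq2 and limma-voom without weights, Slc2a1 in rt-PA over saline stood at 0.83 (DESeq2 adjusted p = 0.0697) and 0.77 (limma-voom adjusted p = 0.247). Cldn5 had no counts and could not be fitted under any of them. Values are the log2 fold change of rt-PA over saline, that of Nano-patrol+NIR over rt-PA, and the adjusted p for any group. With limma-voom and library weights they were -1.47, 1.22 and 0.00106 for Ocln, and 0.78, -0.68 and 0.00248 for Slc2a1. Without rt-PA 3, saline 1 and Nano-patrol+NIR 3 they were -1.58, 1.34 and 0.00131 for Ocln, and 0.92, -0.79 and 0.000726 for Slc2a1. Signs turned for Tjp1 in rt-PA against saline (0.013 with library weights, 0.015 without rt-PA 3, 0.025 without those 3 libraries) and in Nano-patrol+NIR against rt-PA (-0.0018 without those 3). They turned for Ocln in Nano-patrol+NIR against saline (-0.25 with library weights, -0.24 without those 3, -0.15 without Nano-patrol+NIR 3, -0.037 without saline 1). The cause was not tested.

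Leaving out 1 library at a time gave, for rt-PA against saline, -1.51 to -0.58 for Ocln, -0.15 to 0.015 for Tjp1 and 0.58 to 1.07 for Slc2a1. For Nano-patrol+NIR against saline it gave -0.15 to 0.20, 0.026 to 0.11 and 0.081 to 0.34 in the same order. Nano-patrol+NIR over rt-PA gave 0.62 to 1.54, 0.053 to 0.21 and -0.83 to -0.35. The adjusted p for any group ran from 0.0260 to 0.802, 0.818 to 0.973 and 0.0321 to 0.755. rt-PA 3 was the 1 library whose loss put Ocln and Slc2a1 past the threshold.

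Numbers of called genes over the whole table follow for rt-PA over saline, for Nano-patrol+NIR over saline, for Nano-patrol+NIR over rt-PA and for any group, where edgeR gave 1, 1, 0 and 1. They were 1062, 132, 627 and 1090 with DESeq2, 0, 0, 1 and 0 with limma-voom, 6956, 909, 6027 and 7624 with library weights, and 6710, 501, 6195 and 6932 without the 3 libraries. With only the 6 libraries compared they were 0, 3 and 0, and without a filter any group gave 3. Leaving out 1 library gave 0 to 2112, 0 to 35, 0 to 2047 and 1 to 1893. The highest of each came without rt-PA 3.

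The replicate block called 0, 0, 0 and 1 genes and changed no call of Ocln, Tjp1 or Slc2a1. With the block, Ocln in rt-PA against saline stood at -1.04 (edgeR adjusted p = 0.243) and Slc2a1 at 0.77 (0.321). Deviations of same-numbered libraries correlated at -0.362 to 0.278, over 0.1 in 5 of 9 pairs, and 2 of 9 libraries were most alike to one of the same number, so the numbers were not taken to pair the libraries.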
